A study of Homo sapiens with 30 samples.

Results

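The translation initiation and elongation factors were described here as the protein-coding genes of the count table whose symbol begins with EIF1 to EIF6, EEF1 or EEF2. The rule took 71 genes, of 19951 protein-coding genes and 58735 genes in all, and 67 of the 71 passed the filter on low counts. It took the factors themselves together with the eIF4E-binding proteins, the eIF2 kinases, the eEF2 kinase and the methyltransferases of the elongation factors. The 4 genes that did not pass were EIF4E1B, EEF1G and the read-through genes EEF1AKMT4-ECE2 and EEF1E1-BLOC1S5.

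The cells were LNCaP, an androgen-responsive prostate cancer line, and all of them carried a short hairpin RNA against mTOR (shmTOR). The knockdown was rescued through an inducible system with wild-type mTOR (WT), mTOR tagged with a nuclear export signal (NES), mTOR tagged with a nuclear localization signal (NLS), the NLS form with the kinase-dead change D2357E (NLSKD), or empty vector (EV), which restores no mTOR. After 48 h of androgen deprivation in medium with 2% charcoal-stripped serum, each of these 5 lines received 10 nM R1881, a synthetic androgen, or ethanol vehicle (0.1%) for 24 h. That gave 10 groups of 3 libraries. Nothing in the labels says that the 3 libraries of a group came from separate cultures, so the p-values cover only library-to-library spread, part of which may be technical. The labels also do not say whether a line was 1 clone.

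Protein synthesis begins when eIF2 carries the initiator tRNA to the small ribosomal subunit, with eIF1, eIF1A, eIF3 and eIF5, and when eIF4F (the cap-binding eIF4E, the scaffold eIF4G and the helicase eIF4A) brings the mRNA to it. eEF1A then delivers each aminoacyl-tRNA and eEF2 moves the ribosome along. The mTOR complex mTORC1 acts on both stages: it phosphorylates the eIF4E-binding proteins so that they release eIF4E, and through the S6 kinases it restrains eEF2K, the kinase that inactivates eEF2. It also favours translation of TOP mRNAs, which begin with a run of pyrimidines after the cap and encode ribosomal proteins and many of the factors described here.

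Library totals ran from 21435364 to 61762468 counts, and the 71 genes held 2.98% to 4.21% of a library's counts (median 3.61%). MTOR averaged 930 to 5252 CPM in the rescue lines, against 66.1 ± 9.54 CPM in EV under R1881 and 25.7 ± 4.86 CPM in EV under vehicle (SD, n = 3). Here CPM is a gene's count relative to the library size after TMM scaling. The sum of the 8 luminal prostate markers was 6190 to 12101 CPM in R1881 libraries and 1708 to 4009 CPM in vehicle libraries. Of the basal, neuroendocrine and immune markers, KRT5 was at 0 in 27 libraries, TP63 and INSM1 in 29, CHGA in 20, PTPRC in 21 and CD3E in 30. KRT14 was at 0 in 9 libraries and reached 2.85 CPM, and SYP lay between 0.371 and 3.33 CPM in all 30. The mitochondrial share of counts was 3.90% to 11.7%, and exceeded 9% in 5 of them: replicate 2 of NLS under both treatments, replicate 2 of NES under R1881, and under vehicle replicate 2 of NLSKD and replicate 3 of EV.

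Levels between genes were compared on the authors' FPKM values, which are scaled by gene length. The elongation factors led. EEF1A1, the main tRNA-delivering factor, averaged 2791 ± 350.04 FPKM over the 30 libraries, and EEF2, the translocase, averaged 1590.4 ± 202 FPKM (SD). EIF3I (232 FPKM), EIF1 (231 FPKM), EEF1A2 (228 FPKM), EEF1B2 (179 FPKM), EIF4B (144 FPKM) and EIF5A (129 FPKM) followed. At the low end of the tested genes stood EIF4E3 (0.998 FPKM) and EIF4A1 (0.526 FPKM). The kinase EEF2K averaged 5.26 FPKM, far below its substrate EEF2.

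**Figure D1:**
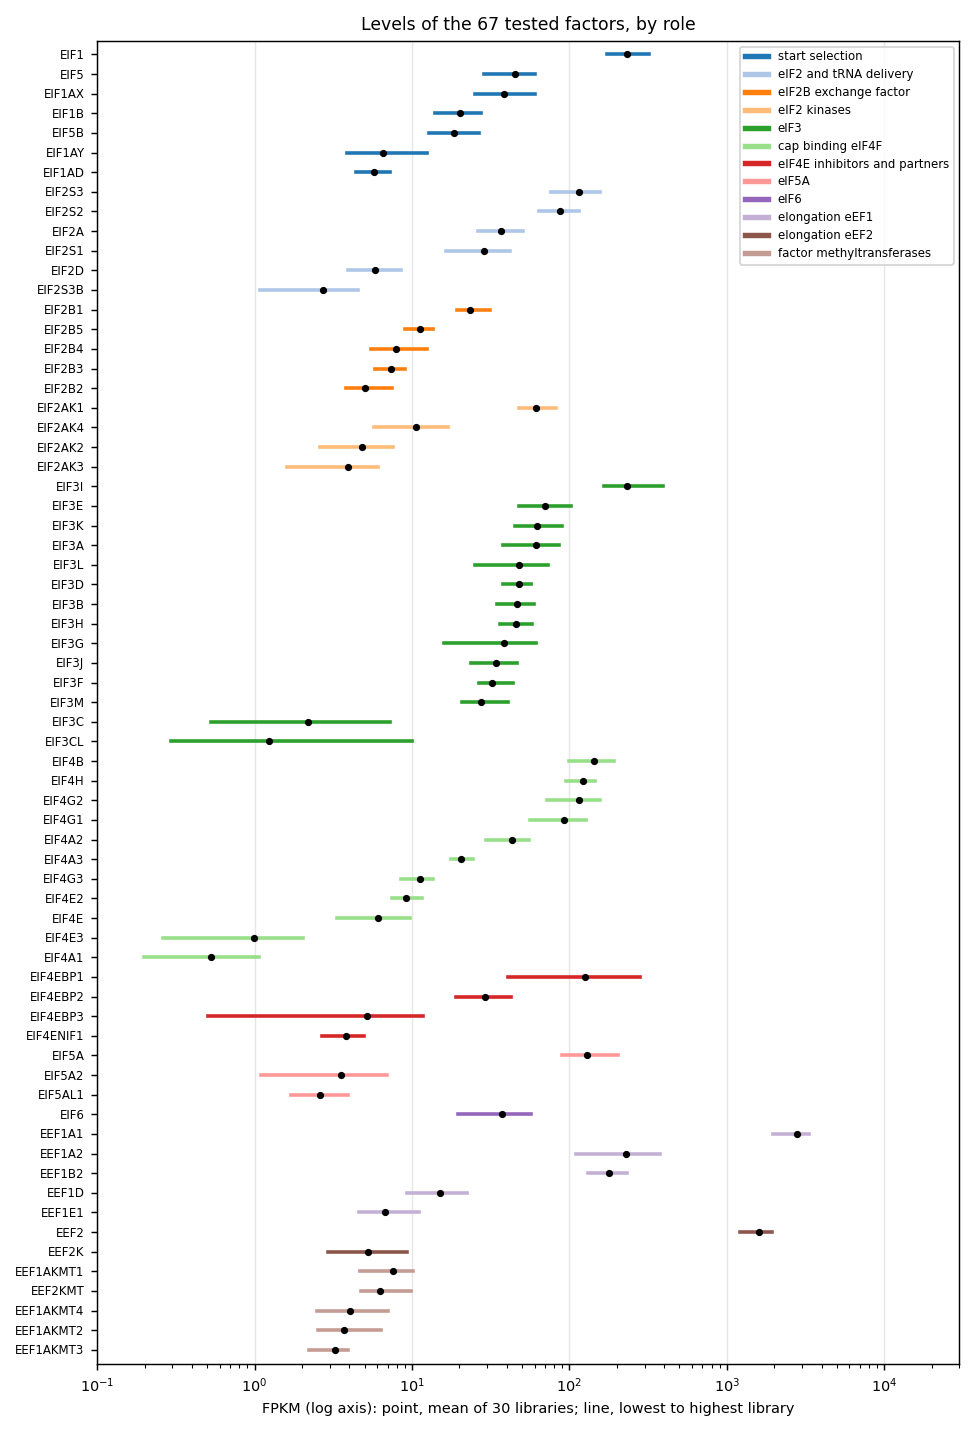
Levels of the 67 tested factors in FPKM on a log axis, grouped and coloured by role. A black point is the mean of 30 libraries and a line runs from the lowest to the highest library. EEF1A1 at 2791 FPKM and EEF2 at 1590.4 FPKM stand far to the right of the others, and EIF4A1 at 0.526 FPKM stands farthest to the left.

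Some of these levels are uncertain because genes overlap. EEF1G, a subunit of the eEF1B exchange factor, had 0 counts in every library, and 99.9% of its exonic bases in GENCODE release 29 lie in AP002990.1, which held 1355 counts over the 30 libraries. EIF4A1, the helicase of eIF4F, had 26 to 158 counts per library, and 48.6% of its exonic bases are shared with other genes on the same strand. EIF4EBP3 shares 73.4% of its exonic bases with the read-through gene ANKHD1-EIF4EBP3, which held 2469 counts where EIF4EBP3 held 2703. How the deposited counting treated shared bases and strand is not given in the sources used here, so a low value of these genes is not read as a low level. The near-identical pairs EIF3C and EIF3CL, EIF2S3 and EIF2S3B, EIF5A and EIF5AL1, and EIF1AX and EIF1AY do not overlap each other. Their levels are uncertain for another reason: reads may match both copies, and how such reads were counted is not given either.

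The spread of the factors was below that of all genes. Over the 67 tested, the median within-group SD of log2 CPM was 0.252, against 0.330 over the 18296 genes tested, and the median range of the 10 group means was 0.550, against 0.730. Among genes with a mean of at least 5 CPM these medians were 0.245 against 0.290, and 0.548 against 0.644. EIF4E3 (log2 range of group means 1.93), EIF5A2 (1.72), EEF1A2 (1.29), EIF1AY (1.23), EEF2K (1.14) and EIF2AK4 (1.10) had wide ranges, as did EIF3C, EIF3CL, EIF4EBP1 and EIF4EBP3, whose replicates were uneven.

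All comparisons below used edgeR's quasi-likelihood test on the counts, and calling a gene took an adjusted p (Benjamini-Hochberg, over the 18296 genes) under 0.05. In the 19 comparisons 16 members were called at least once, 10 of them in a comparison of 2 groups, and 51 tested members were called in none. Single comparisons called 0.00547% to 27.4% of all genes. How many of all genes were called at least once was not counted, so the 16 have no background share. Unless a replicate block is named, calls are from the fit without one. The median log2 fold change of the members lay farthest from that of all genes in NES against EV under R1881, at -0.07 against 0.03.

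**Figure D2:**
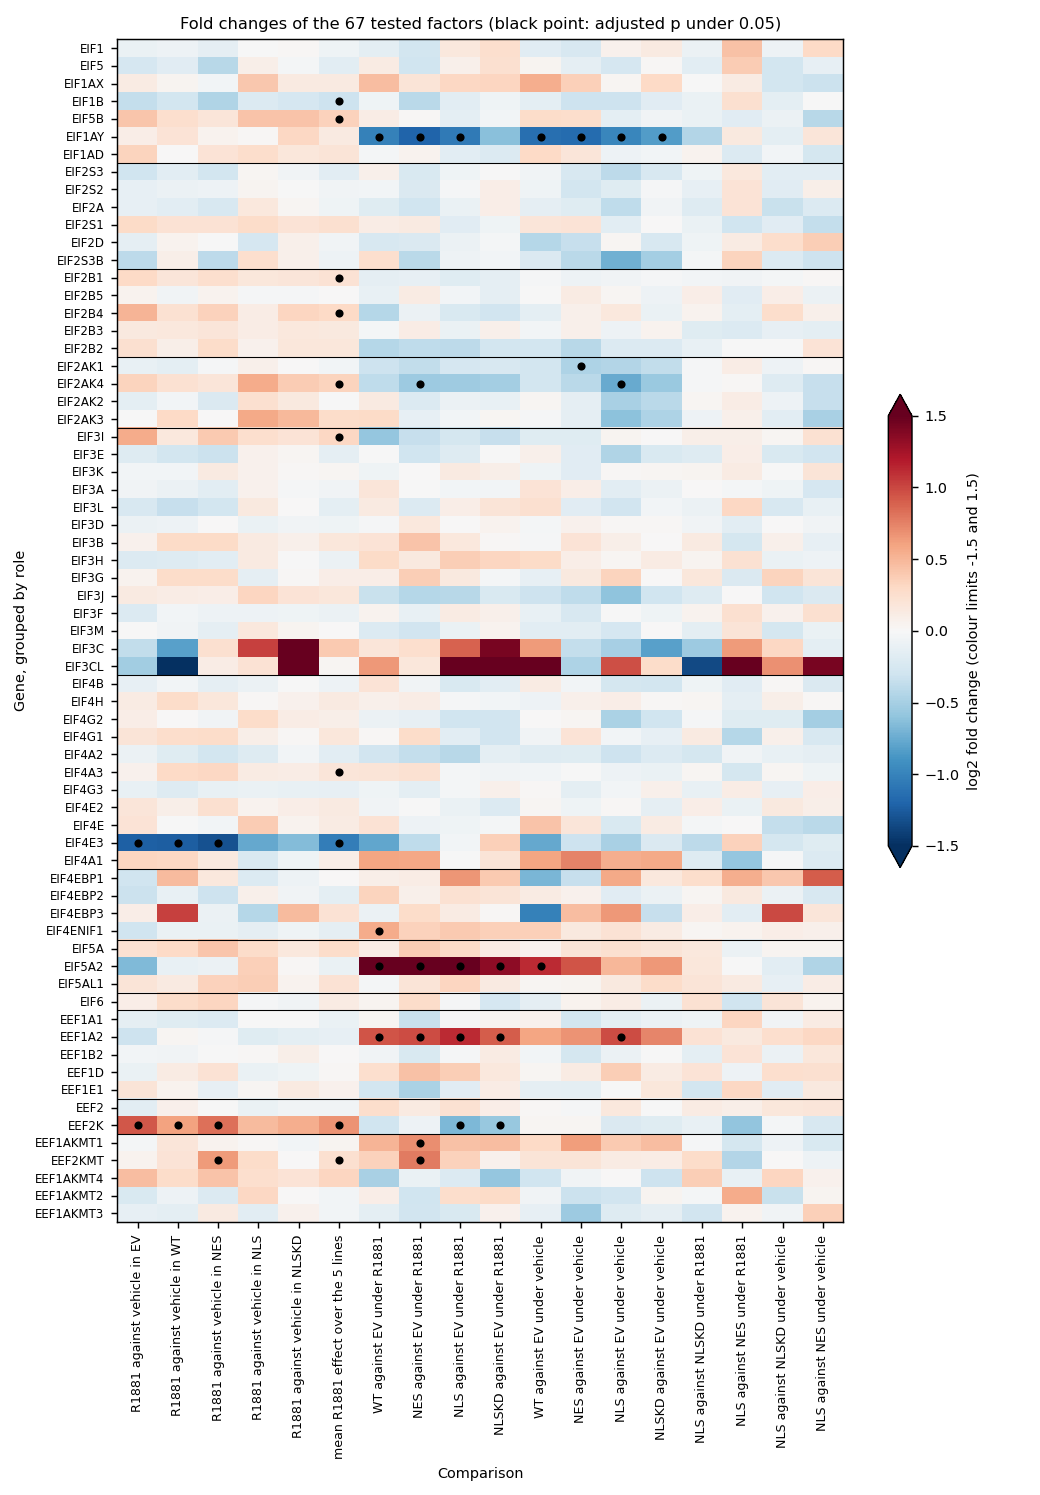
Log2 fold changes of the 67 tested factors (down the page, grouped by role) in 18 comparisons (across), red for higher and blue for lower in the first-named group, with a black point where the adjusted p was under 0.05. In the androgen columns of single lines, points fall on EEF2K, EIF4E3 and, in NES, EEF2KMT, and the mean androgen effect has 10 points. In the columns against EV they fall on EIF1AY, EIF5A2, EEF1A2, EEF2K, EIF2AK4, EIF2AK1, EIF4ENIF1, EEF2KMT and EEF1AKMT1. No point falls in the 4 columns of NLS against NLSKD or NES.

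Androgen raised EEF2K and lowered EIF4E3 and left most other factors uncalled. EEF2K (chr16:22206282-22288732, plus strand, hg38) is the kinase that phosphorylates eEF2 and slows elongation. In EV it stood at 73.8, 57.4 and 63.6 CPM under R1881, against 40.7, 29.8 and 31.7 CPM under vehicle, and the groups did not overlap. The log2 fold change was 0.93 ± 0.16 (SE; 1.91-fold; adjusted p = 0.000266). In NES it was 67.7, 55.0 and 61.6 CPM under R1881, against 33.7, 32.7 and 37.5 CPM under vehicle, again without overlap (log2 0.83 ± 0.16 SE, adjusted p = 0.0011). WT cells had 54.1, 53.2 and 51.2 CPM under R1881, against 36.0, 33.8 and 34.3 CPM under vehicle (log2 0.61 ± 0.16 SE, adjusted p = 0.0199).

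The lines with nuclear mTOR had smaller EEF2K differences that were not called. NLS cells had 45.3, 31.9 and 44.8 CPM under R1881, against 33.2, 23.5 and 31.5 CPM under vehicle, with overlap (log2 0.47 ± 0.16 SE, adjusted p = 0.126). NLSKD cells had 45.4, 40.5 and 45.5 CPM under R1881, against 33.7, 25.6 and 30.9 CPM under vehicle, without overlap (log2 0.54 ± 0.16 SE, adjusted p = 0.0632). In a joint test for a difference in androgen response among the lines, EEF2K had an adjusted p of 1. All 5 lines had a higher EEF2K mean under R1881, and the mean effect over the lines was 0.68 ± 0.07 (log2, SE; 1.60-fold; adjusted p = 3.97e-08).

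EIF4E3 (chr3:71675416-71754773, minus strand, hg38), a cap-binding member of the eIF4E family, went the other way. In EV it had 9.05, 8.54 and 5.89 CPM under R1881, against 18.0, 15.5 and 21.3 CPM under vehicle (log2 -1.22 ± 0.29 SE, adjusted p = 0.00648). WT cells had 6.10, 4.70 and 2.92 CPM under R1881, against 12, 8.93 and 11.3 CPM under vehicle (log2 -1.23 ± 0.30 SE, adjusted p = 0.00867). NES cells had 6.97, 5.97 and 4.99 CPM under R1881, against 22.1, 11.4 and 10.8 CPM under vehicle (log2 -1.30 ± 0.29 SE, adjusted p = 0.00415). The groups did not overlap in these 3 lines. The log2 differences were -0.77 ± 0.29 in NLS, with overlap, and -0.65 ± 0.29 in NLSKD, without overlap, at adjusted p of 0.181 and 0.365. Over the 5 lines the mean effect was -1.03 ± 0.13 (log2, SE; 2.05-fold lower; adjusted p = 5.6e-07).

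**Figure D3:**
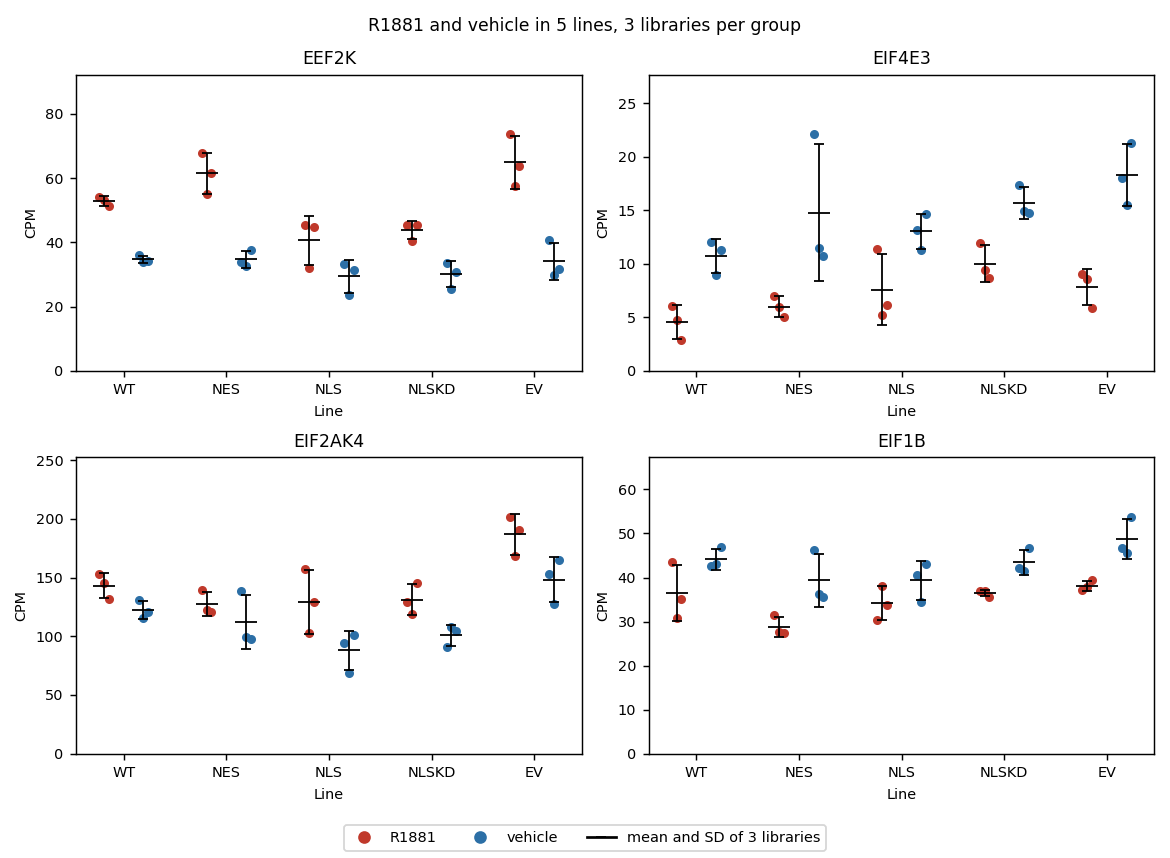
CPM of EEF2K, EIF4E3, EIF2AK4 and EIF1B in each library (points) with the mean and SD of 3 libraries (black), for R1881 (red, left of each pair) and vehicle (blue, right) in the 5 lines. EEF2K under R1881 lies above vehicle without overlap in every line but NLS, and EIF4E3 lies below it without overlap in every line but NLS.

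Members called under R1881 against vehicle numbered 2 of 67 in EV, where 9.11% of all genes tested were called, 2 in WT (6.48% of all genes) and 3 in NES (8.25%). None was called in NLS (4.44% of all genes) or NLSKD (4.08%), where edgeR gave 4 and 6 members an unadjusted p under 0.05 and DESeq2 called 1 in each. The members' shares, 2.99%, 2.99% and 4.48% in the first 3 lines, were thus below those of all genes. Among the basal markers, KRT14 was called higher under R1881 in all 5 lines, and the 3 basal markers together reached 0.239 to 2.85 CPM in R1881 libraries and 0 to 0.402 CPM in vehicle libraries. Their part in the androgen results was not tested. The additional member in NES was EEF2KMT, which methylates eEF2: 31.7, 26.9 and 30.1 CPM under R1881, against 15.0, 20.3 and 21.7 CPM under vehicle (log2 0.64 ± 0.16 SE, adjusted p = 0.00885). On the other strand, 29.3% of its exonic bases lie in ALG1.

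Same-numbered replicates moved together in EV, WT, NES and NLSKD. A fit with a replicate block called 4 members in EV, 2 in WT, 5 in NES and 1 in NLSKD. As shares of members these were 5.97%, 2.99%, 7.46% and 1.49%, against 13.5%, 10.4%, 13.6% and 5.95% of all genes. The members added were EIF3I (log2 0.56, adjusted p = 0.00857) and EIF2B4 (0.53, 0.018) in EV, EIF1B (-0.45, 0.0247) and EIF5 (-0.40, 0.0497) in NES, and EEF2K in NLSKD (0.55, 0.0041). Single libraries decided several calls. EIF4E3 was not called in EV without R1881 replicate 3 (log2 -1.05, adjusted p = 0.0543), in WT without R1881 replicate 3 (-0.98, 0.0883) or in NES without vehicle replicate 1 (-0.91, 0.0675). EEF2K in WT was called only without R1881 replicate 3 (otherwise adjusted p = 0.0615 to 0.0798 in the fits that lacked a library of WT), and EEF2KMT in NES was lost without replicate 1 of R1881 or of vehicle (0.0622 and 0.11). EEF2K in EV and NES was called in every such fit. Without the filter on low counts EEF2K in WT (adjusted p = 0.165) and EEF2KMT in NES (0.188) were not called, nor was EEF2KMT in a fit of only the 2 NES groups (0.154).

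Averaging the androgen effect over the 5 lines called 10 members, 8 higher and 2 lower, or 14.9% of them, against 27.4% of all genes. With the replicate block, where the numbers pair the R1881 and vehicle libraries in 4 of the 5 lines, it called 20 members, or 29.9%, against 35.3% of all genes. The mesenchymal marker FN1 fell in the same average (log2 -0.43, adjusted p = 0.00437). Beside EEF2K and EIF4E3 these were small shifts. EIF5B, the GTPase that joins the ribosomal subunits, rose by 0.34 ± 0.08 (log2, SE; adjusted p = 0.00109). EIF2AK4, the kinase GCN2 that senses uncharged tRNA, rose by 0.34 ± 0.08 (adjusted p = 0.00124), and EIF1B, a paralogue of eIF1, which monitors start codons, fell by 0.31 (SE 0.06, adjusted p = 0.000516). For EIF2AK4 the R1881 and vehicle libraries did not overlap in 4 of the 5 lines, and for EIF5B and EIF1B in 3.

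EEF2KMT (0.24 ± 0.07, adjusted p = 0.0125), EIF2B1 (0.22 ± 0.07, 0.0128) and EIF4A3, the helicase of the exon junction complex (0.18 ± 0.05, 0.0104), rose less. EIF2B1 and EIF2B4 (0.30 ± 0.10, 0.0284) were the 2 called of the 5 eIF2B subunits, which exchange the nucleotide of eIF2, and EIF3I (0.32 ± 0.11, 0.0318) was the 1 called of 14 eIF3 genes. Without the 5 libraries of high mitochondrial share EIF4A3 (0.15, 0.0932) and EEF2KMT (0.21, 0.0687) were not called, and without the filter on low counts EIF4A3 (0.18, 0.323), EIF2B1 (0.21, 0.18) and EEF2KMT (0.23, 0.194) were not. The calls of EIF3I and EIF2B4 were lost without 18 and 13 of the 30 single libraries (log2 0.25 to 0.31, adjusted p = 0.0533 to 0.0752, and 0.24 to 0.29, 0.0533 to 0.0708). The joint test for a difference in androgen response among the lines called 0 members in edgeR, with 0 at an unadjusted p under 0.05, and 0.0273% of all genes.

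Against EV, all 4 rescue lines had higher EIF5A2 and EEF1A2 under R1881 and lower EIF1AY under vehicle. All 4 rescue lines were set against the same 3 EV libraries per treatment, so their differences are not independent of each other. EIF5A2 (chr3:170888415-170908693, minus strand, hg38) encodes the less widely expressed form of eIF5A, the factor that carries hypusine and helps stalled peptide bonds form. Under R1881 it had 31.0, 22.5 and 22.6 CPM in WT, 26.2, 21.9 and 19.8 CPM in NES, 38.3, 12.3 and 17 CPM in NLS and 18.7, 14.5 and 26.9 CPM in NLSKD, against 9.85, 7.80 and 6.14 CPM in EV. No rescue library fell within the EV range. The log2 fold changes were, with an SE of 0.33 each, 1.68 in WT, 1.51 in NES and NLS alike and 1.34 in NLSKD (adjusted p = 0.00129, 0.00433, 0.00461 and 0.0136).

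Under vehicle EIF5A2 had 33.2, 21.5 and 27.3 CPM in WT, against 13.6, 9.09 and 15.0 CPM in EV (log2 1.12 ± 0.33 SE, adjusted p = 0.035). It averaged 24.1 ± 6.67 CPM in NES, 17.7 ± 4.25 CPM in NLS and 19.8 ± 4.23 CPM in NLSKD, none of them called (log2 0.94, 0.49 and 0.65, adjusted p = 0.112, 0.554 and 0.406). As a share of the summed FPKM of EIF5A2 and EIF5A, EIF5A2 averaged 2.51% to 3.35% in the rescue lines under R1881, against 1.14% in EV, and 2.64% to 4.21% under vehicle, against 2.20% in EV. Under R1881 the lowest libraries of NLS (1.04%) and NLSKD (1.41%) lay within the EV range of 0.888% to 1.54%. EIF5A itself averaged 355 to 461 CPM across the 5 R1881 groups and 302 to 357 CPM across the vehicle groups. It was called in the mean androgen effect with the replicate block (log2 0.27, adjusted p = 0.00112), and not without it (0.28, 0.0663).

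EEF1A2 (chr20:63488012-63499322, minus strand, hg38), the eEF1A form best known from muscle and neurons, was likewise called in every rescue line under R1881. It had 811, 1358 and 1348 CPM in WT, 1003, 1375 and 1211 CPM in NES, 972, 1778 and 1222 CPM in NLS and 1084, 1488 and 857 CPM in NLSKD, against 601, 685 and 542 CPM in EV. Every rescue library was above the highest EV library. The log2 fold changes were 0.94, 0.97, 1.12 and 0.91 (SE 0.25 to 0.26, adjusted p = 0.0179, 0.0174, 0.00634 and 0.0308). Under vehicle only NLS was called, with 1364, 1844 and 1291 CPM, against 727, 998 and 549 CPM in EV (log2 0.98 ± 0.25 SE, adjusted p = 0.0209).

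In WT, NES and NLSKD under vehicle the EEF1A2 differences were 0.59, 0.67 and 0.73 (log2), with adjusted p of 0.2, 0.163 and 0.126. Within the summed FPKM of both eEF1A genes, EEF1A2 made up 7.40% to 10.0% in the rescue lines under R1881, against 4.25% in EV, and 6.71% to 9.88% under vehicle, against 4.72% in EV. EEF1A1, which carries most of that sum, was not called in any comparison without the block. Its widest difference from EV was in NES under R1881, with 15447, 11989.7 and 12381 CPM, against 18634, 15768 and 15793 CPM in EV (log2 -0.33 ± 0.14 SE, adjusted p = 0.177).

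**Figure D4:**
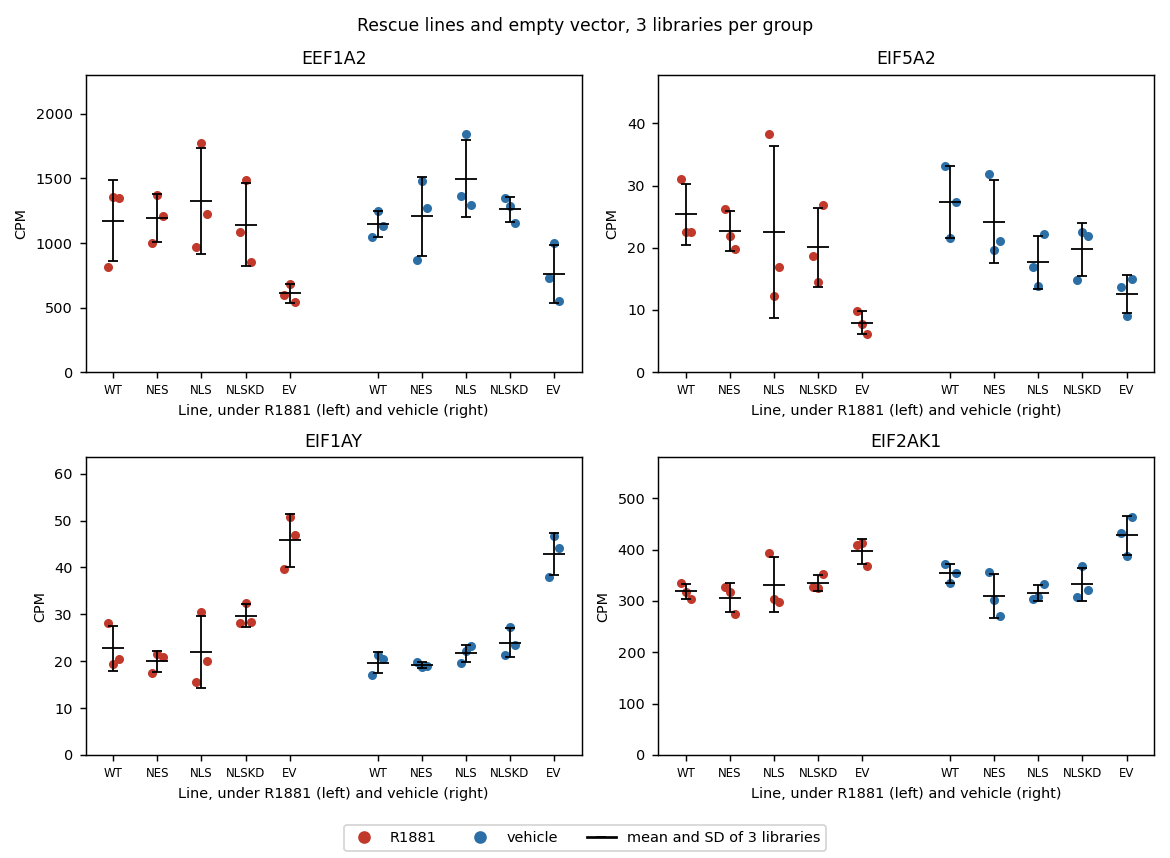
CPM of EEF1A2, EIF5A2, EIF1AY and EIF2AK1 in each library (points) with the mean and SD of 3 libraries (black), for the rescue lines and EV (right of them) under R1881 (red, left) and vehicle (blue, right). EV under R1881 is the lowest group for EEF1A2 (542 to 685 CPM) and EIF5A2 (6.14 to 9.85 CPM), and EV is the highest group for EIF1AY under both treatments.

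EIF1AY (chrY:20575725-20593154, plus strand, hg38), the Y-linked copy of the scanning factor eIF1A, was lower than in EV in all 8 comparisons and called in 7. Under vehicle it averaged 19.7 ± 2.21 CPM in WT, 19.2 ± 0.577 CPM in NES, 21.7 ± 1.81 CPM in NLS and 24.0 ± 3.08 CPM in NLSKD, against 42.9 ± 4.47 CPM in EV (log2 -1.13, -1.16, -0.98 and -0.84, adjusted p = 0.000271, 0.000276, 0.00185 and 0.0089). Under R1881 the averages were 22.7 ± 4.82 CPM in WT, 19.9 ± 2.22 CPM in NES, 22.0 ± 7.69 CPM in NLS and 29.7 ± 2.42 CPM in NLSKD, against 45.8 ± 5.64 CPM in EV (log2 -1.01, -1.20, -1.06 and -0.63, adjusted p = 0.000802, 0.000167, 0.000681 and 0.0519). Other Y-linked genes moved with it: of 10 tested, EIF1AY included, 1 to 6 were called lower and 1 higher in each of the 8 comparisons, with medians of -0.52 to -1.10 (log2), and their part in the result was not tested. Its X-linked partner EIF1AX was not called.

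Of the 4 eIF2 kinases, which slow initiation under stress, EIF2AK4 and EIF2AK1 were called against EV. EIF2AK4 (GCN2) had 93.9, 68.9 and 101 CPM in NLS under vehicle, against 153, 127 and 165 CPM in EV (log2 -0.75 ± 0.17 SE, adjusted p = 0.00693), and 139, 122 and 121 CPM in NES under R1881, against 202, 168 and 191 CPM in EV (log2 -0.55 ± 0.17 SE, adjusted p = 0.0496). In the other 6 comparisons its log2 difference was -0.28 to -0.56 without a call. EIF2AK1, the heme-regulated kinase HRI, had 356, 302 and 272 CPM in NES under vehicle, against 432, 388 and 464 CPM in EV (log2 -0.47 ± 0.13 SE, adjusted p = 0.038). EIF2AK2 (PKR) and EIF2AK3 (PERK, the kinase of the endoplasmic reticulum) were called in no comparison, with log2 differences from -0.48 to 0.25 and from -0.62 to 0.57.

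EEF2K, which androgen raised, was lower in both lines with nuclear mTOR than in EV under R1881: 45.3, 31.9 and 44.8 CPM in NLS and 45.4, 40.5 and 45.5 CPM in NLSKD, against 73.8, 57.4 and 63.6 CPM in EV (log2 -0.67 and -0.57, SE 0.16 each, adjusted p = 0.0104 and 0.0361). In WT and NES the differences from EV were -0.30 and -0.08 (adjusted p = 0.326 and 0.869), and under vehicle the 4 lines differed from EV by -0.21 to 0.03. NLS and NLSKD were not tested against WT. Under R1881 MTOR averaged 1037 CPM in NLS and 1082 CPM in NLSKD, against 1603 CPM in WT and 4296 CPM in NES. Whether the amount of MTOR or its tag goes with the EEF2K level cannot be told apart here. EIF4ENIF1, the eIF4E transporter 4E-T, was called in WT under R1881, with 26.4, 26.1 and 25.0 CPM, against 18.9, 17.1 and 16.5 CPM in EV (log2 0.56 ± 0.13 SE, adjusted p = 0.00487). In NES under R1881 EEF2KMT had 31.7, 26.9 and 30.1 CPM, against 18.1, 16.1 and 17.5 CPM in EV (log2 0.78 ± 0.16 SE, adjusted p = 0.00218). EEF1AKMT1, a lysine methyltransferase of eEF1A, had 12.7, 13.8 and 11 CPM there, against 8.64, 8.06 and 6.27 CPM in EV (log2 0.70 ± 0.20 SE, adjusted p = 0.0314).

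Against EV under R1881, WT had 4 members called (8.49% of all genes), NES had 6 (6.96% of all genes), NLS had 4 (6.23%) and NLSKD had 3 (5.75%). Under vehicle WT had 2 (6.71% of all genes), NES had 2 (4.94%), NLS had 3 (4.57%) and NLSKD had 1 (4.01%). As shares of the 67 members these were 5.97%, 8.96%, 5.97%, 4.48%, 2.99%, 2.99%, 4.48% and 1.49% in that order, near or below the share of all genes but for NES under R1881. That count of 6 became 3 to 4 in fits that left out 1 library and 3 without the filter on low counts. VIM, a mesenchymal marker, was called higher than in EV in all 8 comparisons (log2 1.40 to 2.23) while FN1 was called in none and ZEB1 was not tested. The summed mesenchymal markers spanned 119 to 247 CPM in the rescue lines and 108 to 172 CPM in EV under R1881, and 152 to 359.9 CPM and 159 to 243 CPM under vehicle, and their part in these results was not tested.

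Same-numbered replicates moved together in NLS and NLSKD against EV under both treatments. With the replicate block the calls there became 7 in NLS and 7 in NLSKD under R1881, and 5 in NLS and 3 in NLSKD under vehicle. As shares of members these were 10.4%, 10.4%, 7.46% and 4.48%, against 10.7%, 10%, 8.59% and 6.58% of all genes. The added calls were EIF2AK4 (log2 -0.54), EIF4A2 (-0.41) and EIF4ENIF1 (0.40) in NLS under R1881, EIF2AK1 (-0.44) and EIF3J (-0.60) in NLS under vehicle, and EEF1A2 (0.77) and EIF2AK4 (-0.54) in NLSKD under vehicle. In NLSKD under R1881 they were EIF1AY (-0.62), EIF2AK4 (-0.51), EEF1AKMT4 (-0.58) and EIF3CL (2.34, uneven between replicates).

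Single libraries mattered for many of these calls. EIF5A2 held in WT and NES under R1881 in every fit that left out 1 library. It was lost in NLS without R1881 replicate 1 (log2 0.88, adjusted p = 0.0793), in NLSKD without EV replicate 2 or 3 or NLSKD replicate 3 (1.05 to 1.32, 0.0513 to 0.112) and in WT under vehicle without replicate 1 or 2 of EV or replicate 1 or 3 of WT (0.93 to 1.17, 0.0777 to 0.188). EEF1A2 under R1881 was lost in WT and NES without EV replicate 1 or 3 or replicate 2 or 3 of the line (0.80 to 0.97, 0.059 to 0.105), in NLS without its replicate 2 (0.85, 0.0555), and in NLSKD without any EV replicate or its replicates 1 or 2 (0.67 to 0.999, 0.0522 to 0.192). Under vehicle it was lost in NLS without EV replicate 1 or 3 or NLS replicate 2 (0.80 to 0.97, 0.0807 to 0.16).

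EEF2K against EV was lost in NLS without EV replicate 1 or NLS replicate 2 (log2 -0.57 to -0.52, adjusted p = 0.0782 to 0.0788) and in NLSKD without EV replicate 1 or 3 or any NLSKD replicate (-0.62 to -0.47, 0.065 to 0.191). EIF2AK4 was lost in NES without any 1 library of either group (0.0554 to 0.176) and in NLS without EV replicate 3 or NLS replicate 2 (0.0529 to 0.0823). EIF2AK1 was lost without EV replicate 1 or 3 or NES replicate 2 or 3 (0.118 to 0.261), and EEF1AKMT1 without every library of the pair but EV replicate 1 (0.0512 to 0.172). EIF1AY in NLSKD under vehicle was lost without NLSKD replicate 1 or 3 (0.058 to 0.07), and its other 6 calls, EIF4ENIF1 in WT and EEF2KMT in NES held in these fits.

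Other settings ended some calls under R1881 against EV. Without the filter on low counts these were EIF4ENIF1 in WT (adjusted p = 0.323), EEF2KMT (0.0619), EEF1AKMT1 (0.22) and EIF2AK4 (0.188) in NES, and EEF2K in NLS (0.0964) and NLSKD (0.201). In fits of only the 2 groups they were EIF4ENIF1 in WT (0.096), EEF1AKMT1 in NES (0.06), EEF1A2 (0.0916), EEF2K (0.259), EIF1AY (0.143) and EIF5A2 (0.174) in NLS, and EEF1A2 (0.0604) and EEF2K (0.114) in NLSKD. Under vehicle, EIF2AK1 in NES was lost in both (0.509 and 0.474), and EEF1A2 (0.111) and EIF2AK4 (0.131) in NLS in the fit of 2 groups.

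Without the 5 libraries of high mitochondrial share the calls of EIF2AK4 in NES under R1881 (log2 -0.53, adjusted p = 0.081) and in NLS under vehicle (-0.51, 0.228), of EEF2K in NLS (-0.52, 0.0544), of EEF1AKMT1 in NES (0.62, 0.0909), of EIF2AK1 in NES (-0.40, 0.177) and of EEF1A2 in NLS under vehicle (0.63, 0.4) were lost. The other calls against EV held. The counts that moved by over 1.5 times became 5 in NLSKD under R1881, 1 in NES under vehicle and 1 in NLS under vehicle.

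NLS against NLSKD sets nuclear mTOR against its kinase-dead form. It called 0 members under R1881 (0.00547% of all genes) and 0 under vehicle (0.0109%), with 1 and 0 members at an unadjusted p under 0.05 in edgeR. DESeq2 called 0 in each. The member fold changes ran from -1.35 to 0.37 under R1881, where EIF3CL was the lowest, and from -0.35 to 0.99 under vehicle, where EIF4EBP3 was the highest. For EEF2K the difference was -0.11 ± 0.16 under R1881 and -0.03 ± 0.16 under vehicle, and for EIF5A2 0.17 ± 0.32 and -0.16 ± 0.32 (log2, SE).

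NLS against NES compares mTOR tagged for the nucleus with mTOR tagged for export. MTOR itself was lower in NLS, at 1037 ± 362 CPM, against 4296 ± 1398 CPM in NES under R1881 (log2 -2.05, adjusted p = 0.000884), and at 929.9 ± 290.1 CPM, against 5252 ± 2028 CPM under vehicle (-2.50, 0.000181). The amount of MTOR and the tag cannot be told apart here. It called 0 members under R1881 (1.37% of all genes) and 0 under vehicle (1.03%), with 7 and 3 at an unadjusted p under 0.05 in edgeR, and DESeq2 called 1 and 0. The smallest adjusted p was that of EEF2K under R1881, with 45.3, 31.9 and 44.8 CPM in NLS, against 67.7, 55.0 and 61.6 CPM in NES, which did not overlap (log2 -0.59 ± 0.16 SE, adjusted p = 0.0735). Same-numbered replicates moved together in that pair. With the replicate block, where 2.96% of all genes were called, EEF2K was the 1 member called (log2 -0.60, adjusted p = 0.00397). Under vehicle its difference was -0.24 ± 0.16.

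The cap-binding group holds eIF4F and related factors, among them EIF4G2, EIF4B, EIF4H and EIF4A3 of the exon junction complex. Of this group and the eIF4E inhibitors and partners, EIF4E3, EIF4A3 and EIF4ENIF1 alone were called without the block. With it, the helicase EIF4A2 was called in NLS against EV under R1881 (log2 -0.41, adjusted p = 0.0317) and in the mean androgen effect (-0.16, 0.0294). EIF4EBP1, the inhibitor that mTORC1 phosphorylates, was uneven between replicates: 61.8, 295 and 168 CPM in NLS under R1881, against 172, 300.1 and 134 CPM in NLS under vehicle. WT cells had 65.1, 139 and 151 CPM under R1881, against 69.1, 98.8 and 87.9 CPM under vehicle, and EV cells had 90.01, 138 and 105 CPM under R1881, against 116, 217 and 77.0 CPM under vehicle. Its group means lay between 85.3 and 202 CPM, and its log2 differences ran from -0.68 to 0.91 with no adjusted p below 0.535. EIF4EBP2 averaged 180.2 to 245 CPM per group, with log2 differences of -0.32 to 0.33. EIF4EBP3 stayed below 8.2 CPM in every library.

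EIF4E, the cap-binding subunit that those proteins inhibit, averaged 65.8 to 104 CPM per group, with log2 differences from -0.41 to 0.43 and no adjusted p below 0.485. EIF4G1, the scaffold, averaged 664 to 1001 CPM, highest in NES under R1881 (1024, 898 and 1080.2 CPM, against 727, 838 and 925 CPM under vehicle, with overlap), and its log2 differences ran from -0.43 to 0.28. EIF4B, a cofactor of the helicase and a TOP mRNA, averaged 765 to 1063 CPM (log2 differences -0.28 to 0.21). The low counts of EIF4A1 gave group means of 1.91 to 3.59 CPM and no call.

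**Figure D5:**
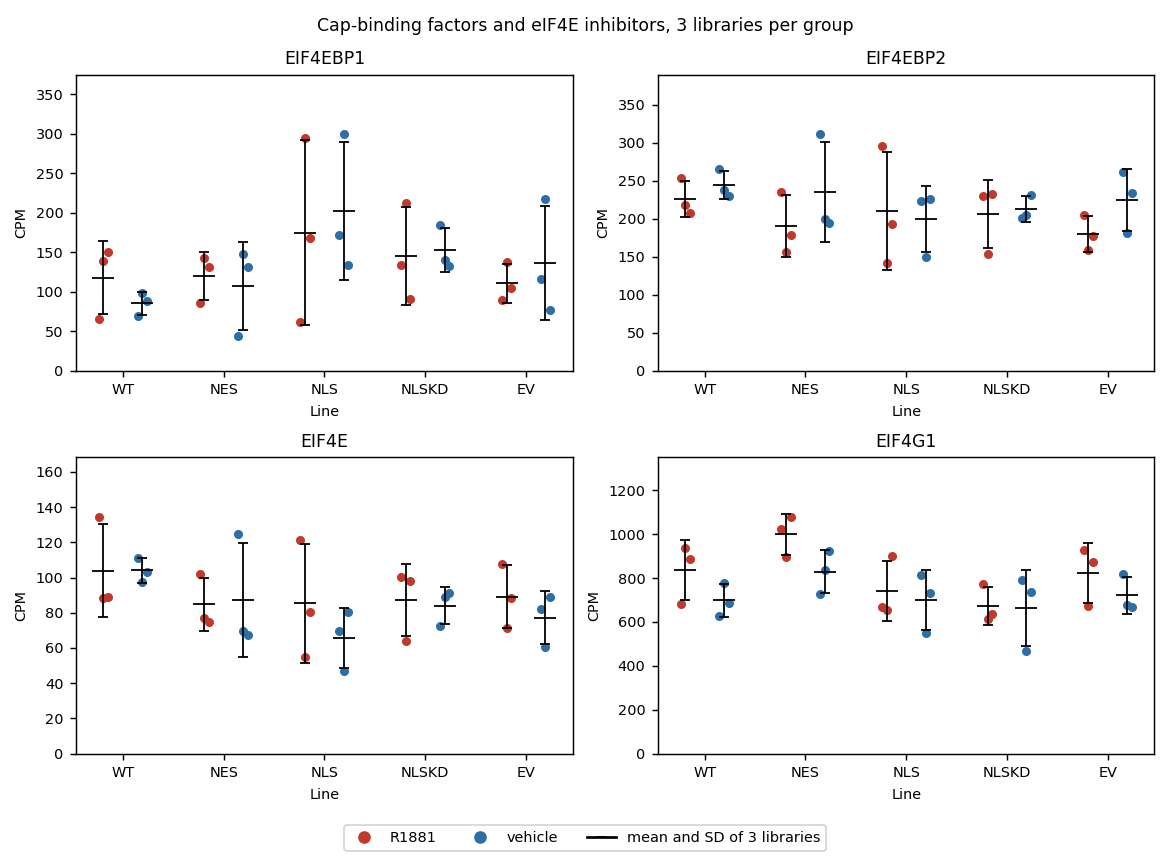
CPM of EIF4EBP1, EIF4EBP2, EIF4E and EIF4G1 in each library (points) with the mean and SD of 3 libraries (black), for R1881 (red, left of each pair) and vehicle (blue, right) in the 5 lines. The R1881 and vehicle points of EIF4EBP1 overlap in every line, and NLS under R1881 spans 61.8 to 295 CPM.

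By role, the androgen effect averaged over lines called 2 of 7 start selection factors (EIF5B higher, EIF1B lower), 2 of 5 eIF2B subunits and 1 of 4 eIF2 kinases. In the cap-binding group, which is wider than eIF4F, 2 of 11 tested genes were called (EIF4A3 higher, EIF4E3 lower). The average also called 1 of 14 eIF3 genes, EEF2K of the eEF2 pair and 1 of 5 methyltransferases. It called 0 of the 6 genes of eIF2 and tRNA delivery, 0 of the 4 eIF4E inhibitors and partners, 0 of the 3 eIF5A genes, 0 of the 5 tested eEF1 genes and not EIF6. With the replicate block the average called EIF2S1, a subunit of eIF2 (log2 0.23, adjusted p = 0.0141), EIF5A, 4 of 5 eIF2B subunits and 4 of 7 start selection factors. It also called 3 of the 11 genes of the cap-binding group, 2 of 14 eIF3 genes (EIF3B and EIF3I), 2 of 5 methyltransferases, EIF4ENIF1, EIF2AK4 and EEF2K. Without the block the eIF2, eIF3 and eIF2B groups and EIF6 had no call in any of the 17 comparisons of 2 groups.

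The members known as TOP mRNAs (EEF1A1, EEF1B2, EEF1D, EEF1G, EEF2, EIF3E, EIF3F, EIF3H and EIF4B) are of interest because mTOR governs their translation. Of these 9, the 8 tested were called in 0 of the 19 comparisons without the block, which called 0.00547% to 27.4% of all genes. The median log2 fold change of the 8 lay between -0.15 and 0.15, and single fold changes ran from -0.46 to 0.44. EEF2 had 5266, 7878 and 7522 CPM in WT under R1881, against 5845, 5866 and 5553 CPM in EV, its widest difference from EV (log2 0.26 ± 0.18 SE, adjusted p = 0.462). These are RNA levels, and translation was not measured.

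Start windows from RefSeq (GRCh38.p14, each on its gene's strand) show examples with and without a pyrimidine run at the start of transcription. Each holds 10 bases before the start and 20 transcribed ones, and capitals mark the pyrimidine run that begins at the annotated start with C. The first 6 genes were chosen for such a run, and EIF2S3 and EIF4A2 among them are not on the TOP list above. EEF1B2 and EEF1G, which are on that list, have no such run at their RefSeq start and are not shown. The last 3, which are members that were called, lack the run, as do uncalled members such as EIF1 and EIF4G1. EEF1A1, EEF2, EIF4E3 and EIF5A2 lie on the minus strand and the others on the plus strand.
EEF1A1 chr6:73521013-73521042: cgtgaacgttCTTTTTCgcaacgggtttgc
EEF2 chr19:3985444-3985473: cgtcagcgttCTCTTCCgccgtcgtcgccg
EIF4B chr12:53006446-53006475: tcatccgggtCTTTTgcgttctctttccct
EIF3F chr11:7987327-7987356: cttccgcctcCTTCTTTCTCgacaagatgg
EIF2S3 chrX:24054946-24054975: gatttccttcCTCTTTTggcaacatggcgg
EIF4A2 chr3:186783567-186783596: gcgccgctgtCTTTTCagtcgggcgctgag
EEF2K chr16:22206268-22206297: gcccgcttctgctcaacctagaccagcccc
EIF4E3 chr3:71754754-71754783: cccgccgtccagttggcggccgcctggccg
EIF5A2 chr3:170908618-170908647: cccgtctcttggaactgccgcggccgccac

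A start at C followed by at least 4 bases that are C or T was found in 12 of the 57 members with a RefSeq promoter (21.05%), against 1104 of 27305 promoters of all genes (4.043%). The 12 were EEF1A1, EEF2, EIF4B, EIF3F, EIF2S3, EIF4A2, EIF2A, EIF2D, EIF2S3B, EIF3D, EIF3K and EIF3M, and 4 of the 6 matched members known as TOP mRNAs were among them. Without the block none of the 12 was called in any comparison, and with it EIF4A2 was, as given above, as was EEF1A1 in NES against EV under R1881, where the replicate numbers do not pair the samples. In the fit without the block, the 12 called members that have a promoter all lack such a start. Both sets are small, single comparisons called 0.00547% to 27.4% of all genes, and whether start and call go together was not tested. The median log2 fold change of the 12 lay between -0.22 and 0.14 over the comparisons. RefSeq names 1 start per entry, so a run a few bases away is not counted.

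The 250 bases upstream of the start of EEF2K and EIF5A2 are printed as examples of called members that hold an E-box, which other called members lack. EEF2K had called differences with androgen and against EV, and EIF5A2 had them only against EV. Capitals mark the E-box CACGTG, which reads the same on both strands. Strand and build are as above.
EEF2K chr16:22206028-22206277: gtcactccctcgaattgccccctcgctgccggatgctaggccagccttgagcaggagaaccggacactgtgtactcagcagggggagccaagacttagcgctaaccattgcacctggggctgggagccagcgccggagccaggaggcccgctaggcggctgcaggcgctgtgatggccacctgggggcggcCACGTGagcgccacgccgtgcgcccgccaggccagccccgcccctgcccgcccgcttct
EIF5A2 chr3:170908638-170908887: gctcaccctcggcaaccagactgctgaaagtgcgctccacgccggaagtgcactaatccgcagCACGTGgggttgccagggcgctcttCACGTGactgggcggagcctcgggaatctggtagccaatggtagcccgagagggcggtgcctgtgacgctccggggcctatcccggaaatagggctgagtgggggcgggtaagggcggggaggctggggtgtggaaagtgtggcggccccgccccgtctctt

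EEF2K holds 1 E-box and EIF5A2 holds 2. Of the other called members with a promoter, EIF1B and EIF4A3 held one. EIF4E3, EIF1AY, EIF4ENIF1, EIF2AK4, EIF3I, EIF5B, EIF2B1 and EIF2B4 held none. Over the 300-base promoter windows, 15 of 57 members held the E-box (26.32%), against 7.435% of all promoters. The 15 count EEF1AKMT4 and its read-through gene EEF1AKMT4-ECE2 separately, although they have the same window. The androgen half-site AGAACA, or TGTTCT on the other strand, was in 11 of 57 members (19.3%), against 14.85% of all promoters. Those members include EEF1E1 and its read-through gene, whose windows overlap. Of the called members, EIF4E3 and EIF4A3 held the half-site, and EEF2K and EIF5A2 did not. A match of letters is a description of the window and not a binding site.

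Other translation genes that the symbol rule does not take were set beside the members: 34 genes of the mTORC1 arm, poly(A) binding, restart, release and rescue, the stress arm, selenocysteine insertion and mitochondrial translation. All 34 were tested, and 0 were called in the 17 comparisons of 2 groups, which each called 0.00547% to 9.11% of all genes. The mean androgen effect called 4 higher and 2 lower of the 34, with 27.4% of all genes called. GSPT1, the release factor eRF3a, rose by 0.58 ± 0.17 (log2, SE; adjusted p = 0.0102), the mitochondrial elongation factor GFM1 rose by 0.54 ± 0.15 (0.00727), the S6 kinase RPS6KB2 rose by 0.42 ± 0.15 (0.0341) and the ribosome rescue factor PELO rose by 0.19 ± 0.06 (0.0168). The initiation helicase DHX29 fell by 0.37 (SE 0.13, adjusted p = 0.031) and the poly(A)-binding protein PABPC4 fell by 0.16 (SE 0.05, adjusted p = 0.0184).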

How the data were processed

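Paired-end reads of 150 bases from total RNA were processed by the authors. Their deposited table holds raw counts and FPKM per gene for 30 libraries, per the file headers. The submitters' processing notes name HISAT2 2.0.5, featureCounts 1.5.0-p3 and build hg38. What each tool did, how strand was set and how multiply matching reads were counted is not stated there. The deposited FPKM matched counts scaled by gene length within 0.1%.

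Counts were fitted in edgeR 4.0.16 (R 4.3.3; TMM, filterByExpr, glmQLFit and glmQLFTest, two-sided, 30 libraries, 1 mean per group, no block), leaving 18296 genes, and a call was an adjusted p under 0.05. The code was tested on simulated data. Counts differed between replicates of a group by far more than sampling noise. Same-numbered replicates had correlated deviations (every pair over 0.1) in 10 of 17 comparisons. Promoters came from RefSeq tables for 57 of 71 members.

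Alternatives were size factors of DESeq2 (RLE), no filter (at least 1 count), DESeq2 1.42.0, limma 3.58.1 on log2(FPKM + 1), a replicate block, leaving out the libraries with a mitochondrial share above 9%, leaving out each library and fitting only the 2 groups compared. Genes named with full values were up to 6 called members per comparison by smallest adjusted p with a mean of at least 1 CPM, and EIF4EBP1 to EIF4EBP3, EIF4E, EIF4G1, EIF4A1, EIF4B, EEF2, EEF2K, EEF1A1, EEF1A2, EIF5A, EIF5A2 and EIF2AK1 to EIF2AK4. The other members that the text names with values, those with overlapping bases, the added calls under the block and EIF3CL, were chosen after their values were seen. The members and lists were chosen with earlier results of these data known. Precision rests on 3 libraries per group, and depth on 21435364 to 61762468 counts per library.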

Additional observations from a re-analysis of the deposited data

How the results depend on the processing

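No called fold change changed direction in any alternative: 42 calls were refitted, of which 42 stayed called with RLE size factors, the replicate block, DESeq2 and limma, 30 of 42 without the filter, 34 of 42 without the libraries of high mitochondrial share, 20 of 32 in fits of only the 2 groups, and 400 of 492 in fits that left out 1 library. RLE moved no count of called members by more than 1.5 times.

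The replicate block moved the counts for R1881 against vehicle to 4 in EV, 5 in NES, 3 in NLS and 1 in NLSKD. Of all genes it called 13.5%, 13.6%, 6.95% and 5.95% there. Against EV it gave WT 7, NES 10 and both NLS and NLSKD 7 under R1881, and WT 4, NES 6, NLS 5 and NLSKD 3 under vehicle. The shares of all genes, lines in that order, were 14.3%, 12.3%, 10.7% and 10% under R1881. Under vehicle they were 11.2%, 8.06%, 8.59% and 6.58%. NLS against NES under R1881 had 1 (2.96% of all genes) and the mean androgen effect 20 (35.3% of all genes). EEF1A1 was among the 10 in NES (log2 -0.34, adjusted p = 0.03). The numbers pair the samples in 10 of the 17 comparisons, and the lowest same-number correlation was -0.64 (NLS against NES under vehicle).

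Without the filter the counts were 1 (androgen, NLS), 2 (androgen, NLSKD), 3 (NES against EV under R1881), 2 (NLSKD against EV under vehicle), 1 and 2 (NLS against NES under R1881 and vehicle) and 2 (difference in androgen response). Without the libraries of high mitochondrial share they were 5 (NLSKD against EV under R1881), 1 (NES under vehicle) and 1 (NLS under vehicle). Fits of 2 groups gave 0 and 1 (NLS and NLSKD under R1881) and 1 each (NES and NLS under vehicle). DESeq2 gave 5, 1 and 1 (androgen in NES, NLS and NLSKD), 7 and 6 (NLS and NLSKD under R1881), 4, 5 and 2 (NES, NLS and NLSKD under vehicle) and 1 (NLS against NES under R1881). On FPKM limma gave 5 (NLSKD under R1881) and 4 (NES under vehicle). The causes were not tested.

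Leaving out 1 library gave 1 to 2 (androgen, EV), 1 (WT), 1 to 4 (NES), 0 to 2 (NLS) and 0 (NLSKD); against EV under R1881 3 to 4, 3 to 4, 2 to 4 and 0 to 2, and under vehicle 1 to 2, 1 to 3, 1 to 5 and 0 to 1 (WT, NES, NLS, NLSKD); 0 for NLS against NLSKD or NES; and 8 to 14 for the mean androgen effect. With 3 libraries per group, many calls were not firm. EIF2AK4 and EEF1AKMT1 in NES against EV under R1881 each stayed called in 5 of 13 alternative fits. EIF2AK1 in NES against EV under vehicle did so in 6 of 13. The androgen call of EIF4E3 stayed in 12 of 13 in each of EV, WT and NES.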
